A study of Mus musculus with 8 samples.

Results

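The genes described here were *Tgfb1*, *Tgfbr1*, *Tgfbr2*, *Smad2*, *Smad3*, *Smad4*, *Smad7*, *Ski* and *Skil*, which encode the main ligand, the receptors, the SMAD proteins and the co-repressors of TGF-beta signaling. They were chosen by symbol, and all 9 were found among the 11233 genes of the table. Their RNA was compared between CCR8+ and CCR8- CD4+ conventional T (Tconv) cells by bulk RNA-Seq, with 4 libraries of each. CD4+ cells lacking EGFP were taken by flow cytometry from subcutaneous B16-F10 tumors (B16-F10 is a mouse melanoma line) of Foxp3EGFP-DTR mice aged 8 to 14 weeks. In these mice the endogenous *Foxp3* gene drives EGFP together with a human receptor for diphtheria toxin, and both sorted populations came from animals in which toxin had been given to deplete Foxp3+ regulatory T (Treg) cells. The toxin was given as 4 injections of 1 µg between day 7 and day 13, and tumors were harvested on day 16. No library from mice with intact Treg cells entered the comparison, so that it addresses how the populations sorted on CCR8 differed and not what depletion did.

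TGF-beta is released from a latent complex and binds the type II receptor, which then phosphorylates the type I receptor. The type I receptor phosphorylates SMAD2 and SMAD3, which join SMAD4 and enter the nucleus to regulate transcription. The inhibitory SMAD7 acts at the receptors, and SKI and SKIL hold SMAD complexes in a repressed state. In T cells the pathway restrains effector differentiation and supports Foxp3 induction, Th17 differentiation and expression of the integrin chain CD103.

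Values are normalized counts, read counts scaled between libraries by the study, and differences are CCR8+ minus CCR8- on the scale log2(normalized count + 1). Each group of 4 libraries is given in the order of replicates 1 to 4. *Ccr8* itself was at 7975, 6970.2, 42508 and 22965 in CCR8+ cells and at 2039, 1293, 6214 and 4637 in CCR8- cells, so that the groups did not overlap for the sorted marker. The summed T cell markers lay between 93465 and 132627 in CCR8- libraries and between 93680 and 128772 in CCR8+ libraries. A list of 10 macrophage markers summed to between 28.6 and 60569.7 in CCR8- libraries and to between 3008 and 27636 in CCR8+ libraries. All 10 had a positive difference on the log2 scale, where the lowest sum, in CCR8- replicate 1, weighs heavily. Replicate 4 went the other way, at 60569.7 in CCR8- and 18874 in CCR8+ cells. The plain means of *C1qa*, *C1qb*, *C1qc* and *Adgre1* were lower in CCR8+ cells, and those of the other markers were higher. Melanoma markers reached 17324 in CCR8- and 21762 in CCR8+ libraries. Genes without reads set 3 libraries apart. CCR8- replicate 1 had 242 genes at 0 that reached at least 100 in all 7 other libraries, CCR8+ replicate 1 had 44 and CCR8+ replicate 3 had 36, against 0 in the other 5 libraries. Each difference was therefore also computed without these 3 libraries.

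Positions of 6 of the genes are given in the GRCm38 annotation, in which *Tgfb1* lies on the plus strand of chr7:25687002-25705077, *Tgfbr1* on the plus strand of chr4:47353222-47414931 and *Tgfbr2* on the minus strand of chr9:116084293-116175360. *Smad3* is on the minus strand of chr9:63646767-63757994, *Ski* on the minus strand of chr4:155154075-155222592 and *Skil* on the plus strand of chr3:31095058-31122577. No annotated exon of any of the 9 genes overlapped an exon of another gene, so that reads in their exons could be assigned to a single gene. The submitters named an earlier build, NCBIM37, and these positions serve only to locate the genes.

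RefSeq promoter sequences (GRCm38.p6), from 250 bases before to 50 bases after a start site, matched 5 of the 9 genes. Those of *Tgfbr2*, *Smad3* and *Ski* are shown because these genes had lower values in CCR8+ cells in all 4 same-numbered pairs of libraries. *Smad7* shared this pattern but had no matching promoter sequence. The 3 sequences follow. They are written 5′ to 3′ on the minus strand, the strand of each gene, and capitals mark CAGAC, the SMAD-binding motif, read on both strands.
Tgfbr2, chr9:116175314-116175613: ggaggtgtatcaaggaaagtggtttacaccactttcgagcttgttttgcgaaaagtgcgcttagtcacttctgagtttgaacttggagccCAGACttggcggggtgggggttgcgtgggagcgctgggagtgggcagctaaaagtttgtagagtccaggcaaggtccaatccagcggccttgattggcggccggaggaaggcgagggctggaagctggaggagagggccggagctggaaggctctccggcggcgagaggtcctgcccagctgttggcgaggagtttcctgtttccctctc
Smad3, chr9:63757945-63758244: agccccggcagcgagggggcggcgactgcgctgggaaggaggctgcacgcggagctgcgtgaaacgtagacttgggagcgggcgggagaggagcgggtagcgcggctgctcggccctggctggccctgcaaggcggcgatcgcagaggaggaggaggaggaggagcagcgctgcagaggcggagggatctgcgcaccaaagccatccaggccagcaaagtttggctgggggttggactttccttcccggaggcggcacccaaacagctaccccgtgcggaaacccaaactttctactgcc
Ski, chr4:155222486-155222785: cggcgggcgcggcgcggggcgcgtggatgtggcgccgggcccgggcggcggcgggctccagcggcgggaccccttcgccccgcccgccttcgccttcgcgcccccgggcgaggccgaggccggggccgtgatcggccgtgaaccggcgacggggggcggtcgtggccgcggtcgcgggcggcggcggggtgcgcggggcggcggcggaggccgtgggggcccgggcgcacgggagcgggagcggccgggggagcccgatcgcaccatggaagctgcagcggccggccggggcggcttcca

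The *Tgfbr2* window held 1 CAGAC, starting 160 bases before the start site, and the *Smad3* and *Ski* windows held none. CAGAC is short and occurred in 49.6% of all 32851 promoter windows of this length. Its palindromic form GTCTAGAC occurred in 0.213% of them and in none of the 3 windows shown. The windows differed in base composition, at 59% G and C for *Tgfbr2*, 67.7% for *Smad3* and 85.3% for *Ski*, beside a median of 52.7% over all windows.

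None of the 9 genes differed between CCR8+ and CCR8- Tconv cells at an adjusted p under 0.05 by limma, and neither did any other gene (0% of the 11032 genes tested). The lowest limma adjusted p of any gene was 0.788. The sorted marker *Ccr8* was thus not called either, although its groups did not overlap. A missing call is therefore not evidence of equal levels. The study itself reported genes that differed between these populations. At an unadjusted limma p under 0.05 the count was also 0 of 9, beside 5.09% of all genes tested, and edgeR on the recovered reads called none of the 9. DESeq2 on these reads called none either, but it gave 8 of the 9 no adjusted p. No gene of the 9 had groups that did not overlap, beside 2.03% of all genes with CCR8+ lower and 2.37% with CCR8+ higher. Of the 9 differences 7 were below 0, with a median of -0.23, whereas the median over all genes tested was 0.04. *Tgfbr2*, *Smad3*, *Smad7* and *Ski* were lower in CCR8+ cells in all 4 same-numbered pairs, a pattern seen in 8.1% of all genes tested, and no member was higher in all 4 pairs (8.44% of all genes). Within 4 pairs an exact test over the 16 swaps cannot go below 2 in 16 and so cannot pass 0.05.

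**Figure D1:**
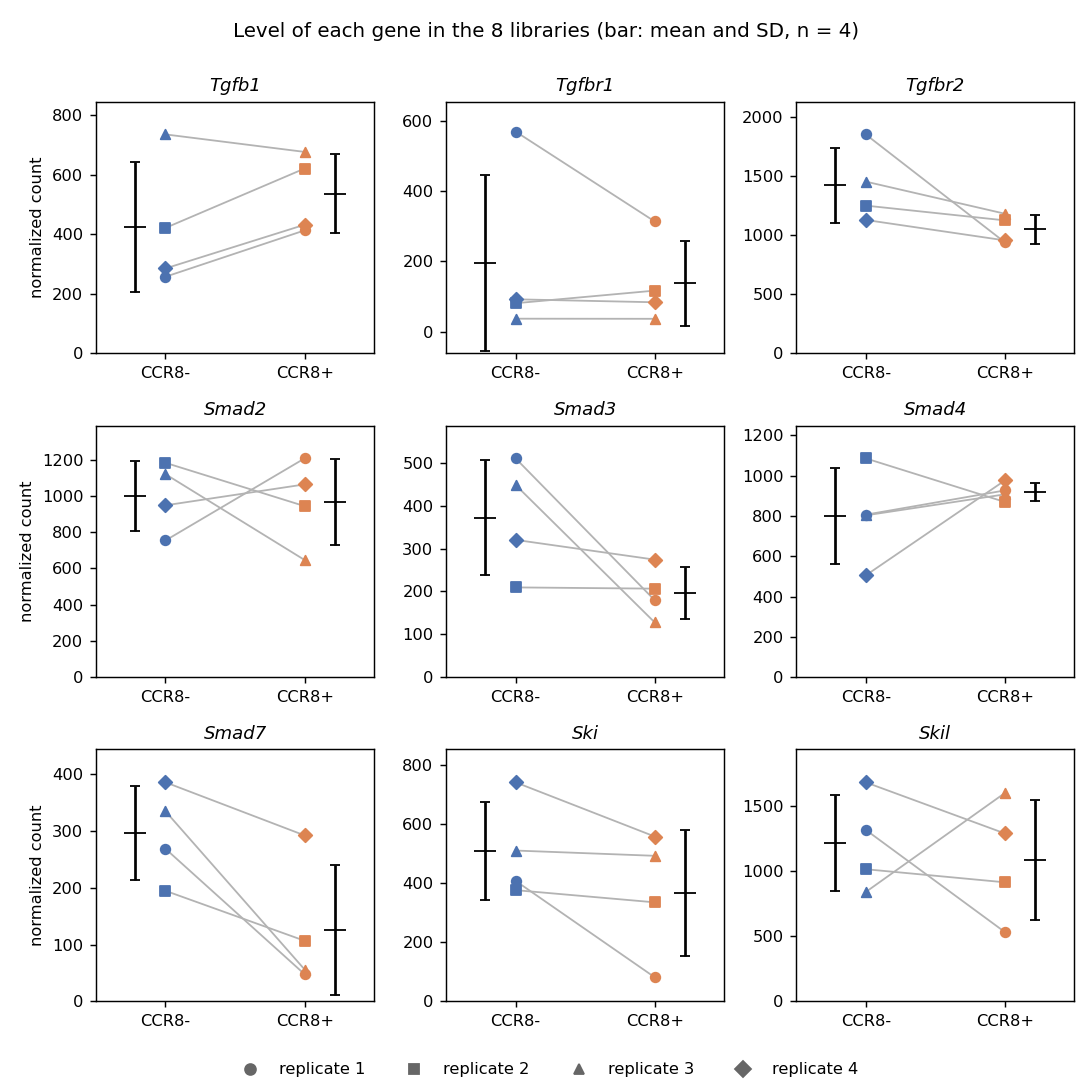
Normalized count of each gene (vertical axes, linear) in CCR8- (blue) and CCR8+ (orange) libraries, with same-numbered libraries joined by lines and the mean and SD of each group of 4 beside them. The groups overlap in all 9 panels, and the lines of *Tgfbr2*, *Smad3*, *Smad7* and *Ski* all slope down toward CCR8+.

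*Tgfb1*, the ligand gene, was at 257, 421, 735 and 285 in CCR8- cells and at 413, 621, 676 and 432 in CCR8+ cells. The CCR8- group held both the lowest and the highest value, and its range enclosed that of CCR8+ cells. The difference was 0.43 ± 0.42 (SE), with a 95% interval from -0.49 to 1.35 and a limma adjusted p of 0.847. Values were higher in CCR8+ cells in 3 of 4 pairs, by 0.56 to 0.68, and lower in pair 3 by 0.12 (a difference of -0.12). The difference was 0.22 without the 3 libraries that missed genes, 0.23 without CCR8- replicate 1, 0.28 without CCR8- replicate 4 and 0.74 without CCR8- replicate 3. Macrophages also transcribe *Tgfb1*. Their marker sums were 28.6, 3894, 1133 and 60569.7 in CCR8- replicates 1 to 4 and 27636, 17708, 3008 and 18874 in CCR8+ replicates 1 to 4. CCR8- replicate 1 was the lowest of the 8 for both *Tgfb1* and the sum, while CCR8- replicate 4 had the highest sum and the second lowest *Tgfb1*, and the part of macrophages in the difference was not tested.

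The receptor genes differed in how steady they were. *Tgfbr2*, encoding the ligand-binding type II receptor, was at 1853, 1250.25, 1453 and 1129 in CCR8- cells and at 939, 1125, 1181.5 and 956 in CCR8+ cells. The highest and lowest of its 8 values were 1.97-fold apart, and only CCR8+ replicate 3 lay above the lowest CCR8- library. The difference was -0.42 ± 0.24 (95% interval -0.94 to 0.11, limma adjusted p = 0.838), and an exact permutation test over the 70 arrangements gave p = 0.0571, two-sided, before any adjustment for the 9 genes. The 4 pairs differed by -0.98, -0.15, -0.30 and -0.24. Without the 3 libraries that missed genes the difference was -0.29.

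*Tgfbr1*, encoding the type I receptor kinase, was at 569, 80.9, 36.8 and 92.0 in CCR8- cells and at 313, 117, 36.5 and 83.6 in CCR8+ cells. Replicate 1 was far above the other replicates in both groups, and the 8 values spanned 15.6-fold. The difference of -0.12 ± 1.07 had a 95% interval from -2.46 to 2.22, the widest of the 9 genes, so that neither a higher nor a lower level in CCR8+ cells could be detected. Its sign depended on the libraries used, since it was 0.66 without CCR8- replicate 1, 0.37 without CCR8+ replicate 3 and 0.60 without the 3 libraries that missed genes. The log2 ratio of *Tgfbr2* to *Tgfbr1* was lower in CCR8+ cells in all 4 pairs, at 3.35 ± 1.41 (SD, n = 4) against 3.64 ± 1.48, which is a smaller gap than the spread within either group.

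Of the receptor-activated SMAD genes, *Smad2* was at 755, 1183, 1120.2 and 948 in CCR8- cells and at 1207, 944, 647 and 1064 in CCR8+ cells. The groups overlapped over most of their range and the pairs were split, with 2 higher and 2 lower. Its difference was -0.07 ± 0.28 (limma adjusted p = 0.967), and it changed sign without CCR8- replicate 2 (0.02) or without CCR8+ replicate 3 (0.11).

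*Smad3* was at 510.2, 209, 448 and 320.3 in CCR8- cells and at 179, 207, 128 and 274 in CCR8+ cells. The 3 highest values were all CCR8- and the 3 lowest all CCR8+, with CCR8- replicate 2 lying below CCR8+ replicate 4. The difference was -0.89 ± 0.51 (95% interval -2.01 to 0.24, limma adjusted p = 0.838), with an exact permutation p of 0.0571, two-sided and unadjusted. It came mainly from pairs 1 and 3, at -1.50 and -1.80, whereas pairs 2 and 4 differed by -0.02 and -0.22. Those pairs hold the 3 libraries that missed genes, and without these libraries the difference was -0.38 ± 0.46. The log2 ratio of *Smad3* to *Smad2* was -2.31 ± 0.33 (SD, n = 4) in CCR8+ and -1.49 ± 0.80 in CCR8- cells and was lower in CCR8+ cells in 3 of 4 pairs, with overlapping groups.

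*Smad4*, encoding the SMAD shared by the branches that use SMADs, was at 807, 1086, 803 and 505 in CCR8- cells and at 927, 869.9, 908 and 977 in CCR8+ cells. The CCR8+ libraries formed a narrow band within the CCR8- range. The difference was 0.25 ± 0.28 (limma adjusted p = 0.857), with 3 of 4 pairs higher and pair 2 lower. It was 0.048 without CCR8- replicate 4 and 0.42 without CCR8- replicate 2.

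*Smad7*, encoding the inhibitory SMAD and itself a transcriptional target of the pathway, had the largest absolute difference of the 9 genes. It was at 269, 195, 335 and 386 in CCR8- cells and at 47.6, 107, 55.9 and 292 in CCR8+ cells. Of the CCR8+ libraries 3 lay below every CCR8- library, and CCR8+ replicate 4 lay above CCR8- replicates 1 and 2. The mean was 296 ± 82.9 (SD, n = 4) in CCR8- and 126 ± 114 in CCR8+ cells. On the log2 scale the difference was -1.58 ± 0.74, or 2.98-fold lower, with a 95% interval from -3.20 to 0.05 and a limma adjusted p of 0.838, and the exact permutation test gave p = 0.0857, two-sided and unadjusted. The pairs differed by -2.47, -0.86, -2.56 and -0.40. The direction was the same in all 24 other ways of processing, but the size was not, at -0.73 ± 0.55 without the 3 libraries that missed genes and -2.11 without CCR8+ replicate 4. In bulk RNA a lower value can come from fewer cells that transcribe a gene or from less RNA per cell, and these cannot be told apart here.

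On average *Smad7* was also lower relative to *Smad3* in CCR8+ cells. The mean log2 ratio was -0.99 ± 0.83 (SD, n = 4) in CCR8+ and -0.29 ± 0.51 in CCR8- cells. No test was run on this ratio, and it was not averaged without the 3 libraries that missed genes. The log2 ratio of *Smad7* to *Smad3* was -0.92, -0.10, -0.42 and 0.27 in CCR8- cells and -1.92, -0.95, -1.19 and 0.09 in CCR8+ cells. It was lower in CCR8+ cells in 4 of 4 pairs, by 0.70 on average (a difference of -0.70), although the groups overlapped because replicate 4 was the highest in both.

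The co-repressor genes *Ski* and *Skil* were each carried by few libraries. *Ski* was at 408, 376, 510.5 and 742 in CCR8- cells and at 81.1, 335, 493 and 558 in CCR8+ cells. CCR8+ replicate 1 was more than 4-fold below the next library, and the other CCR8+ values lay close to those of CCR8- cells. The difference of -0.74 ± 0.60 (limma adjusted p = 0.838) became -0.12 without CCR8+ replicate 1 and -0.27 without the 3 libraries that missed genes. In the pairs it was -2.32, -0.17, -0.05 and -0.41.

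*Skil*, whose product SnoN is degraded upon pathway activation and whose gene is then transcribed again, was at 1318, 1015, 839 and 1683 in CCR8- cells and at 532, 914, 1601 and 1290.06 in CCR8+ cells. The groups overlapped throughout, with CCR8+ replicate 1 the lowest and CCR8- replicate 4 the highest. The difference was -0.23 ± 0.37 (limma adjusted p = 0.904), and it was 0.08 without CCR8+ replicate 1. The log2 ratio of *Skil* to *Ski* was 1.77 ± 0.66 (SD, n = 4) in CCR8+ and 1.26 ± 0.41 in CCR8- cells, and it was higher in CCR8+ cells in 4 of 4 pairs with overlapping groups.

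**Figure D2:**
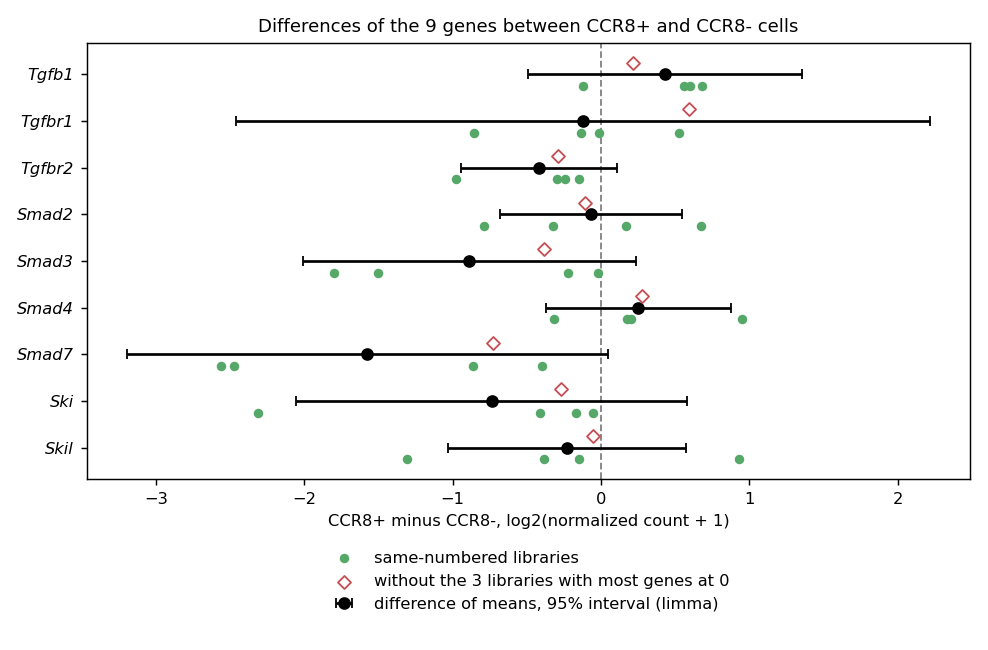
Difference of each gene between CCR8+ and CCR8- cells on the scale log2(normalized count + 1), with the 95% limma interval (black), the 4 same-numbered pairs (green) and the value without the 3 libraries that missed genes (open diamonds). Every interval includes 0, and the diamonds of *Smad3*, *Smad7* and *Ski* lie closer to 0 than the black points.

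CCR8+ replicate 1 held the lowest of the 8 values for 4 of the 9 genes and CCR8+ replicate 3 for 3, while CCR8- replicates 1 and 4 each held the highest for 3. Both of these CCR8+ libraries were among the 3 that missed genes, and the part of missing genes in the differences was not tested. A value at 1 read was worth between 0.735 and 1.14 normalized counts. The least read member value, *Tgfbr1* at 36.5 in CCR8+ replicate 3, rested on 32 reads. For *Tgfbr1* the counting error of the reads alone was therefore small beside the spread between libraries. It was not compared with the spread of the other members. The narrowest spread named here was that of *Smad4* in CCR8+ cells, with an SD of 0.069 on the log2 scale. Error from RNA lost before sequencing in these low-input libraries was not estimated.

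Levels between genes were compared per kb of annotated exon. In CCR8- cells *Smad4* was the highest at 216 ± 63.9 normalized counts per kb (SD, n = 4), followed by *Tgfbr2* at 174 ± 38.8, *Skil* at 125 ± 38.2 and *Smad2* at 114 ± 21.9. *Ski* (91.5), *Tgfb1* (84.2), *Smad3* (67.1), *Smad7* (65.5) and *Tgfbr1* (29.8) were lower on this per kb scale. Each gene overlapped its neighbor in this order. In CCR8+ cells the order was the same except that *Tgfb1*, at 106 per kb, stood above *Ski*, at 65.9. *Smad4*, at 248 ± 11.97 per kb in CCR8+ cells, lay above *Tgfbr2*, at 128 ± 14.8, with no overlap, and all later neighbors overlapped. The low end of the order in CCR8+ cells was *Smad3* at 35.5, *Smad7* at 27.8 and *Tgfbr1* at 21.1 per kb.

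**Figure D3:**
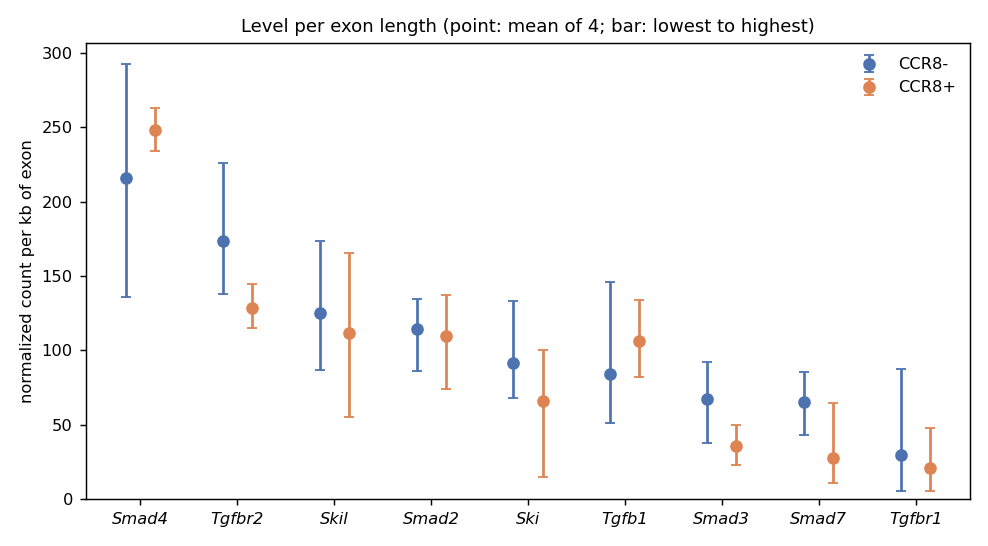
Normalized counts per kb of annotated exon for the 9 genes, in the order of their CCR8- means. Points are means of 4 libraries and bars run from the lowest to the highest. *Smad4* is the highest in both groups, at 216 in CCR8- and 248 in CCR8+ cells, and *Tgfbr1* the lowest.

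Some members followed each other across the 8 libraries. *Ski* and *Skil* had a Pearson r of 0.85 on the log2 scale, which was 0.85 after each group's mean was removed. CCR8+ replicate 1 was the lowest of the 8 libraries for both genes, at 81.1 and 532. The r of these genes was not computed without that library. *Smad3* and *Smad7* had an r of 0.82, and 0.64 after the group means were removed, while *Tgfb1* and *Tgfbr1* ran in opposite directions at -0.72 and -0.77. These are descriptions over 8 libraries that share their scaling and the loss of genes in 3 of them. By the same measure, the gene most like each member among 8407 others with a mean of at least 100 was *Mat2a* for *Tgfb1* (r = 0.97), *Ndufa10* for *Tgfbr1* (0.98), *Scaf8* for *Tgfbr2* (0.98), *Nr2c2* for *Smad2* (0.98) and *Lrch3* for *Smad3* (0.95). It was *Surf4* for *Smad4* (0.94), *Ltb* for *Smad7* (0.96), *Mrps34* for *Ski* (0.99) and *Arhgap31* for *Skil* (0.97). Each of these r values is the highest of 8407 over only 8 libraries, so that a high value can arise by selection alone. No chance level was computed.

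**Figure D4:**
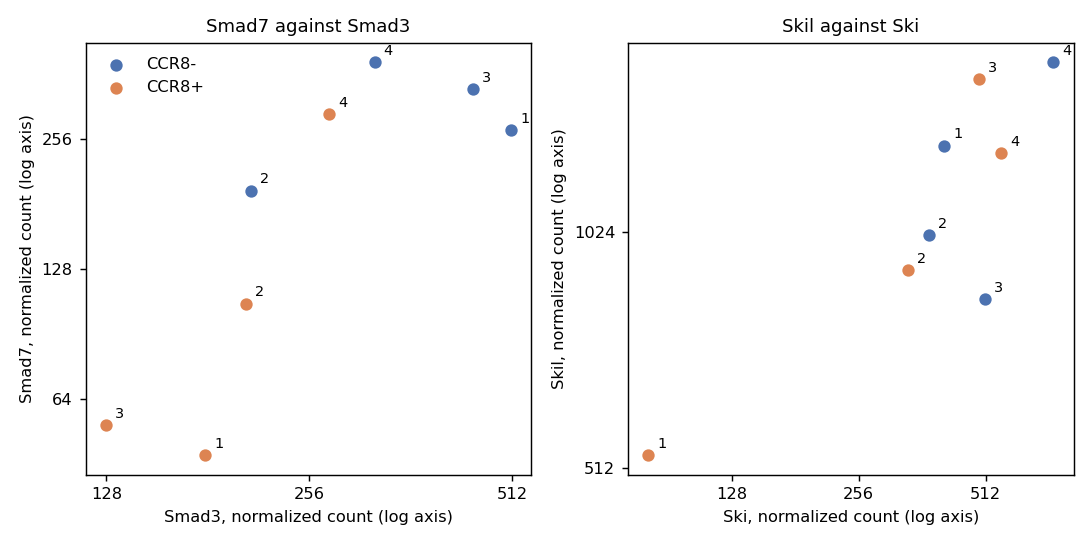
*Smad7* against *Smad3* (left) and *Skil* against *Ski* (right) in the 8 libraries, as normalized counts on log axes, with replicate numbers beside the points. CCR8+ replicates 1 and 3 sit at the lower left for *Smad3* and *Smad7*, and CCR8+ replicate 1 stands alone at the lower left for *Ski* and *Skil*.

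The rest of the pathway was followed through 8 lists of 96 other genes, of which 73 were tested. None was called by limma (0 of 73), 4 had an unadjusted p under 0.05, beside 5.09% of all genes tested, and the median difference was -0.10, with 31 above 0 and 42 below. Groups did not overlap for 4 genes, *Itgae*, *Smurf2*, *Crebbp* and *Sin3a*, all lower in CCR8+ cells (2.03% of all genes tested), and for 0 genes with CCR8+ higher (2.37% of all genes tested).

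Upstream of the receptors, the list of other ligands and of latency and activation factors gave 4 differences above 0 and 5 below among 9 tested genes (median -0.03), and the other receptors and co-receptors gave 3 and 3 (median -0.00). Both remaining SMAD genes in the table belong to the bone morphogenetic protein branch. *Smad1* had a difference of 0.71 ± 0.64 and *Smad5* of -1.24 ± 0.62, each with a limma adjusted p of 0.838 or above and overlapping groups. That of *Smad1* was 0.24 without CCR8+ replicate 3, 0.40 without CCR8- replicate 4 and 0.41 without the 3 libraries that missed genes. That of *Smad5* was -0.76 without CCR8+ replicate 4 and -1.39 without the 3 libraries that missed genes.

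Among 18 regulators of receptor and SMAD turnover 5 were above 0 and 13 below, with a median of -0.18. *Smurf2*, a ubiquitin ligase recruited by SMAD7 to the receptors, was at 437, 149, 211 and 189 in CCR8- cells and at 11.9, 142, 109 and 104 in CCR8+ cells. Its groups were separate by a narrow margin, 149 against 142, and its difference was -1.74 ± 0.94 (limma adjusted p = 0.838). It was -0.94 without CCR8+ replicate 1 and -0.57 without the 3 libraries that missed genes.

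Among 14 nuclear SMAD partners and co-repressors 5 were above 0 and 9 below (median -0.11). *Crebbp*, a histone acetyltransferase that SMADs recruit, was at 522, 437, 423 and 547 in CCR8- cells and at 98.4, 321, 317 and 383 in CCR8+ cells, a difference of -0.94 ± 0.49. *Sin3a*, the scaffold of a histone deacetylase complex, was at 719, 199, 166 and 292 in CCR8- cells and at 122, 158, 163 and 28.7 in CCR8+ cells, a difference of -1.55 ± 0.79. Both had a limma adjusted p of 0.838. Of the exonic bases of *Sin3a*, 3.96% overlap genes on the opposite strand. As with *Ski*, the lowest values of *Smurf2* and *Crebbp* were in CCR8+ replicate 1, and the difference of *Crebbp* was -0.50 without that library and -0.41 without the 3 libraries that missed genes. That of *Sin3a* was -0.97 without CCR8+ replicate 4 and -1.64 without the 3 libraries that missed genes.

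The branches of the pathway that do not use SMADs gave 5 differences above 0 and 4 below among 9 genes, with a median of 0.19.

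Genes listed as induced by TGF-beta gave 5 differences above 0 and 2 below among 7 tested genes, with a median of 0.49. Whether TGF-beta induces each of them in these cells, *Id1* included, was not tested. *Itgae* encodes CD103, which TGF-beta induces in T cells. It was at 1178, 579.9, 510.5 and 251 in CCR8- cells and at 70.3, 175, 0 and 19.2 in CCR8+ cells, so that every CCR8+ library lay below every CCR8- library. The highest value, 1178, and 2 of the low ones, 0 and 70.3, were in the 3 libraries that missed genes. Its mean was 629.9 ± 392 (SD, n = 4) in CCR8- and 66.2 ± 78.7 in CCR8+ cells. The fitted difference was -4.60 ± 1.44, a size that depends on the pseudocount because 1 library was at 0, and the limma adjusted p was 0.838. The difference was -2.82 ± 0.84 without the 3 libraries that missed genes. CD103 is also expressed by CD8 T cells, and *Cd8a* was at 90.6, 531, 620.2 and 1984 in CCR8- cells and at 298, 436, 130.01 and 481 in CCR8+ cells. *Cd8b1*, the other CD8 marker, was at 889, 1075, 668 and 1821 in CCR8- cells and at 928, 639, 348 and 724 in CCR8+ cells. The library with the most *Itgae*, CCR8- replicate 1, had the least *Cd8a* but not the least *Cd8b1*, and it also missed the most genes. The part of CD8 T cells in the difference was not tested.

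*Id1* and *Rgs16*, 2 further genes of this list chosen after their values were seen, were higher in CCR8+ cells at an unadjusted limma p under 0.05. *Id1*, encoding an inhibitor of helix-loop-helix factors, had a difference of 3.80 ± 1.67, and *Rgs16*, encoding a regulator of G protein signaling, of 2.56 ± 1.03, each higher in 4 of 4 pairs and with an adjusted p of 0.838. *Id1* was at 0, 13.97, 0 and 37.5 in CCR8- cells and at 123, 24.4, 107 and 61.8 in CCR8+ cells, so that the size of its difference depends on the pseudocount, and it was 2.26 without the 3 libraries that missed genes. *Rgs16* was at 20.7, 232, 1341 and 613 in CCR8- cells and at 872, 1058, 3242 and 1687 in CCR8+ cells. Its difference was 1.38 without CCR8- replicate 1, the library with 242 missing genes, and 1.21 without the 3 libraries that missed genes. The groups of both genes overlapped.

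Genes that TGF-beta represses in T cells gave 3 differences above 0 and 5 below among 8 tested genes, with a median of -0.33. *Myc*, a growth-promoting transcription factor and the only one of the 8 with an unadjusted limma p under 0.05, was at 213, 462, 1575 and 463 in CCR8- cells and at 1589, 975, 2455 and 711 in CCR8+ cells. It was higher in 4 of 4 pairs, with a difference of 1.31 ± 0.57 and a limma adjusted p of 0.838, and was likewise chosen after its values were seen. The difference of *Myc* was 0.26 without the 3 libraries that missed genes. The induced and the repressed lists thus each held differences in both directions.

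**Figure D5:**
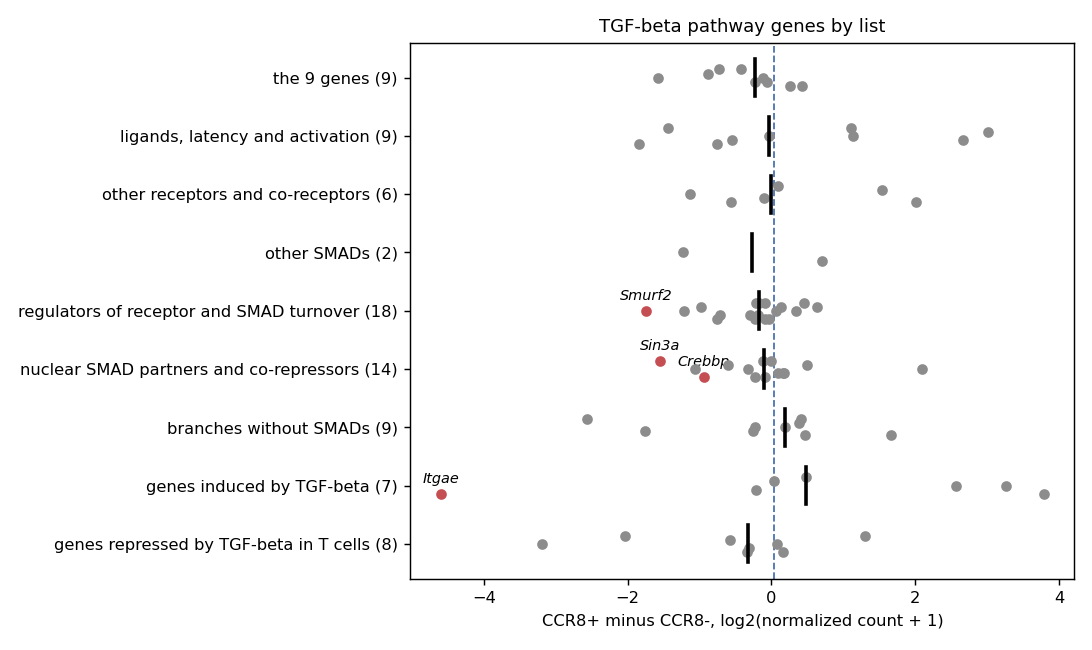
Difference between CCR8+ and CCR8- cells on the scale log2(normalized count + 1) for the tested genes of each list, with the number tested in brackets. Black bars are list medians, the dashed line is the median of all tested genes (0.04), and red points are the 4 genes whose groups do not overlap, all on the lower side and led by *Itgae* at -4.60.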

How the data were processed

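The study sorted Tconv cells, prepared low-input SMARTer libraries, removed adapters (Cutadapt) and mapped the reads with hisat2 to NCBIM37, of which those with a unique position were used. The submitters' notes also name FastQC, HTSeq and DESeq2. The authors deposited 1 table of normalized counts per gene, a signal scaled between libraries. Every value was a whole multiple of its library's smallest one (100% within 0.01 read, more above 10000 reads), which gave 12067780 to 17802628 reads per library. Genes with a mean of at least 10 (11032) were tested with limma 3.58.1 (trended variance, R 4.3.3) on log2(normalized count + 1), with Benjamini-Hochberg adjustment over all of them. The study's own test, DESeq2 1.42.0, and edgeR 4.0.16 were run on the recovered reads as alternatives, since the deposited values are normalized. Exact permutation tests used all 70 arrangements of the 8 libraries, and single genes were described within the 4 same-numbered pairs. The limma step was tested on simulated counts that lacked the loss of genes seen here, so that its power in these libraries was not measured. Libraries were grouped by their labels. The 4 replicates of each group are biological replicates isolated on 1 day, and whether a number marks a mouse is not given in the sources used here.

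The members and the pathway and marker lists were chosen with earlier results of these data known. The text names all 9 members, the pathway genes called at an adjusted p under 0.05 (0), up to 2 genes per list and direction whose groups do not overlap, and the gene most correlated with each member. Exon lengths came from GENCODE (GRCm38), and promoters from RefSeq. Alternatives were other scalings, pseudocounts, filters and variance models, a replicate block and leaving out each library. Library quality weights and leaving out the 3 libraries that missed genes were chosen after seeing the data. Pathway genes outside the table were not analysed here.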

Additional observations from a re-analysis of the deposited data

Results flagged for a closer look

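*Tgfbr1* in CCR8- replicate 1, at 569 normalized counts, stood far from the other CCR8- libraries, which lay between 36.8 and 92.0. On the counts without a log, its gap to the next library was 0.896 of the range of the group. This is above Dixon's 95% critical value for 4 samples. The rule was not run on the log2 scale used for the differences, where high values weigh less. CCR8+ replicate 1 was also the highest of its group, at 313. The 9 genes gave 18 groups to examine, and chance flags about 1 group in 20 where values are normally distributed. Whether these counts meet that condition was not checked. This library had 242 genes at 0 that reached at least 100 in all others, and the part of that loss in the *Tgfbr1* value was not tested.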

How the results depend on the processing

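None of the 9 genes was called under any of the 24 alternatives, and the lowest adjusted p was 0.397, for *Smad7* by DESeq2 with the replicate block. DESeq2 without the block left the adjusted p of 8 of the 9 as NA and gave *Tgfbr2* 0.647. Of 216 differences recomputed for the 9 genes 207 kept their direction, and *Tgfb1*, *Tgfbr2*, *Smad3*, *Smad7* and *Ski* kept it in every alternative. *Tgfbr1* turned positive with quantile normalization (0.26), with library quality weights (0.36) and without the 3 libraries that missed genes (0.60). *Smad4* turned negative with quality weights (-0.088), under which *Smad3* was -0.14, *Ski* -0.21 and *Smad7* -0.77. Leaving out 1 library at a time moved *Tgfb1* between 0.23 and 0.74, *Smad4* between 0.048 and 0.42, *Tgfbr1* between -0.65 and 0.66, *Smad2* between -0.20 and 0.11 and *Skil* between -0.45 and 0.076.

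Over all genes 0 were called in the main analysis, 1 with the replicate block, 2 by limma without the trend, 26 by DESeq2, 124 by DESeq2 with the replicate block and 112 with quality weights. Genes whose groups did not overlap numbered 485, between 698 and 967 when 1 library was left out, where fewer libraries make separation easier, and 2285 without the 3 libraries. The same count among the 9 genes was 0, between 0 and 2 and 1 (*Tgfbr2*), respectively.

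Same-numbered libraries correlated at 0.07, 0.14, 0.11 and 0.22 in their deviations from the group means. Differently numbered libraries lay between -0.17 and 0.10, and each CCR8+ library correlated most with the CCR8- library of its own number. Because the same-numbered value did not reach 0.1 in every pair, the main analysis was run without pairing. These values do not settle whether the numbers mark pairs. With the replicate block the 9 genes had adjusted p values from 0.758 to 0.969, and the block changed no call among them. The cause of the differing counts was not tested. With 4 libraries a group, the 95% intervals of *Tgfbr1*, *Smad7*, *Smad3* and *Ski* span more than 2 log2 units.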

Other observations

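Among the other pathway genes, some were missing from a single library. These were chosen after their values were seen. *Tab2*, encoding an adaptor of the TAK1 kinase, was at 0 in CCR8+ replicate 1 and between 451 and 1222 in the other 7 libraries. *Map3k7*, encoding TAK1 itself, was at 0.985 in CCR8- replicate 1, which is 1 read, and between 282 and 532 elsewhere. *Zeb1*, a SMAD-binding repressor, was at 0 in CCR8- replicate 1, at 14.8 and 16.5 in CCR8+ replicates 3 and 4, and between 198 and 419 in the other 5 libraries. A count of 0 allows up to 3.24 normalized counts (3 reads) in CCR8+ replicate 1 and up to 2.96 in CCR8- replicate 1, for counting error only. None of the 9 members was at 0 in any library.

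*Il2*, which TGF-beta represses in T cells, was lower in CCR8+ cells in 4 of 4 pairs. It was at 139.9, 137, 72.8 and 157 in CCR8- cells and at 1.08, 113, 1.14 and 62.7 in CCR8+ cells, with overlapping groups and a limma adjusted p of 0.838 for a difference of -3.20 ± 1.59. Both lowest values, each 1 read, were in CCR8+ replicates 1 and 3, which were among the 3 libraries that missed genes, and the difference was -0.46 without these 3.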
